A study of Mus musculus with 4 samples.

Results

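The 35 genes described here belong to the amino acid response, which works through the transcription factor ATF4, and to the unfolded protein response of the endoplasmic reticulum (ER). They were listed by name and the rule uses no measured value, but the list was made with earlier results of these data known. All 35 were found among the 50679 genes of the deposited table. All 35 also reached the mean of 1 FPKM over the libraries that was required for testing, as did 12767 genes of the table. FPKM is the number of sequenced fragments scaled to transcript length and library size, so levels can be compared between genes. By role, 13 members belong to the ATF4 arm and amino acid synthesis, 13 are ER chaperones and folding enzymes, 4 act in ER-associated degradation, and 5 are stress sensors, the factor gene Xbp1 and the phosphatase subunit gene Ppp1r15a.

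The samples were 4 RNA-seq libraries of mouse mammary tumour cells carrying PyMT (polyoma middle T, an oncogene), 2 labelled PCNA WT and 2 labelled PCNA 211F, an altered form of the DNA replication clamp PCNA. Per the labels, tumours were taken at 10 weeks of age, made into single cells, enriched with an EpCAM antibody and plated at 100000 cells in medium with 10% serum, in both genotypes alike. The labels call the libraries of a genotype independent repeats, name no promoter for PyMT and tie no library to an animal. The p-values therefore measure the spread between libraries, which may be partly technical.

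ER stress is sensed by the membrane proteins PERK (Eif2ak3), IRE1 (Ern1) and ATF6. PERK phosphorylates the translation factor eIF2alpha, as do kinases that sense amino acid shortage or other stress, and this lowers general translation while favouring that of ATF4. IRE1 splices the Xbp1 transcript, and cleaved ATF6 and spliced XBP1 then switch on chaperone and degradation genes. In mammary epithelium these genes serve the secretion of milk proteins, and tumour cells use them under nutrient or oxygen shortage. Transcript levels do not show phosphorylation, cleavage or splicing.

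Markers of cell type differed between the libraries of each genotype. The WT libraries held 3119.6 and 7.28 FPKM of 12 epithelial markers in sum, with replicate 1 first, and the 211F libraries 3312 and 3624. Of 13 mesenchymal and fibroblast markers they held 276 and 3529 FPKM (WT) and 4271 and 44.5 (211F). Epcam itself stood at 444 and 0.893 (WT) against 77.3 and 449.6 FPKM (211F), and Vim at 124 and 1634 (WT) against 1856 and 1.86 FPKM (211F). The epithelial marker Cdh1 stood at 257 and 0.533 (WT) against 101.6 and 202 FPKM (211F). WT 2 therefore nearly lacked the epithelial markers that its label implies, and it alone held Col1a1, at 437 FPKM against at most 2.70 elsewhere. The 7 milk and secretory markers summed to 884 FPKM in WT 1, against 1.12 to 94.5 in the other libraries. Leukocyte Ptprc was at most 0.0180 FPKM, and the sums of 6 endothelial and 5 adipocyte markers were at most 2.04 and 2.28 FPKM. The 7 myeloid markers summed to between 7.78 and 69.6 FPKM. Of 10 lymphoid and plasma cell markers, only Sdc1, which epithelium also expresses, reached 1 FPKM. Transcripts of Pcna stood at 155 and 147 (WT) against 173 and 119 FPKM (211F), which does not check an allele that alters the protein. In such bulk samples, fewer cells of a type and less RNA per cell cannot be told apart.

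Sequence elements of the stress pathways were present near the start of 13 members. Promoter windows of RefSeq on GRCm38.p6, from 250 bases before to 50 bases after the transcription start, were at hand for 32 of the 35 members (not for Atf6, Hyou1 and Manf), and both strands were searched. The ER stress response element (ERSE), which background knowledge assigns to the factors NF-Y and ATF6 or XBP1, was searched as CCAAT, then any 9 bases, then CCACG. It was present in 8 of the 32 members and in 37 of all 27025 genes with a window (0.137%). The shorter ERSE-II, ATTGG, any 1 base and CCACG, was present in 1 member, Herpud1, and in 0.0444% of all genes. The core of the C/EBP-ATF response element (CARE) through which ATF4 acts, TGATGNAA, was present in 5 members and in 4.51% of genes. TGACGTGG, the core of the unfolded protein response element, was in 0 members and 0.714% of genes. The ERSE and ERSE-II patterns share the letters CCACG, and no match in a member overlapped another. The members are textbook targets of these factors, so the count says nothing independent, and a match is a description of letters, not of binding.

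The ERSE stretches are shown because they lie before the RefSeq start of 7 of the chaperone and folding genes and of Syvn1. Levels of these genes are given further on. In the GENCODE M21 annotation Hspa5 starts earlier, at 34771970, so its stretch lies inside the gene as annotated there. Each stretch is printed 5′ to 3′ on the strand on which the element reads forward, with the fixed letters of the element in capitals.
Calr, chr8:84847055-84847113, plus strand: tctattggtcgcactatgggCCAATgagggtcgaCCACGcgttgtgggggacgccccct
Canx, chr11:50325780-50325838, minus strand: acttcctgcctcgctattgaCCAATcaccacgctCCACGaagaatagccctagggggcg
Creld2, chr15:88819500-88819558, minus strand: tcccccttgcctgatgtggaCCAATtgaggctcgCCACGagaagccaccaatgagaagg
Dnajc3, chr14:118937807-118937865, plus strand: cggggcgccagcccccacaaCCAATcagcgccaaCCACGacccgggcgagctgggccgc
Hsp90b1, chr10:86705618-86705676, minus strand: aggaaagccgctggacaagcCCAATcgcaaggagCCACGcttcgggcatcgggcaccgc
Hsp90b1, chr10:86705513-86705571, plus strand: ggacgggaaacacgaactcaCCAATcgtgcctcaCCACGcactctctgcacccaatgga
Hspa5, chr2:34772005-34772063, plus strand: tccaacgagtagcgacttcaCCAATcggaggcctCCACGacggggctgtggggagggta
Pdia6, chr12:17266471-17266529, plus strand: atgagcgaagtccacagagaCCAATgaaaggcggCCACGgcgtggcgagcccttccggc
Syvn1, chr19:6046512-6046570, plus strand: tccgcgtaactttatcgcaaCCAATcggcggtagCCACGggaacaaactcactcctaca

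The stretches below hold the ATF4-type core in 3 genes of the amino acid response, in the same orientation and with the fixed letters in capitals. All lie before the RefSeq start. In GENCODE M21 Asns (minus strand) starts at 7693254 and Vldlr (plus strand) at 27216484, so their stretches lie inside the genes as annotated there.
Asns, chr6:7693210-7693252, minus strand: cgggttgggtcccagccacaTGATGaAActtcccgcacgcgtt
Chac1, chr2:119351029-119351076, minus strand: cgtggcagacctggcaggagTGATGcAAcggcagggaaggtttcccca
Vldlr, chr19:27216800-27216847, minus strand: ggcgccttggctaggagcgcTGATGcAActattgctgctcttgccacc

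Herpud1, an ER membrane protein of the degradation machinery, was the only member whose window held elements of both kinds. Its stretch is printed on the gene's own strand, where the ATF4-type core reads in reverse and ERSE-II forward.
Herpud1, chr8:94386297-94386407, plus strand: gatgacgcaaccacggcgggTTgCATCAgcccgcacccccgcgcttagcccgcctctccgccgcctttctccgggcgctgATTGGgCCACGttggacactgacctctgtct

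The remaining match, an ATF4-type core in Trib3, began 15 bases after the RefSeq start. In GENCODE M21 Trib3 (minus strand) starts at 152344032, which places the match before the gene as annotated there.

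**Figure D1:**
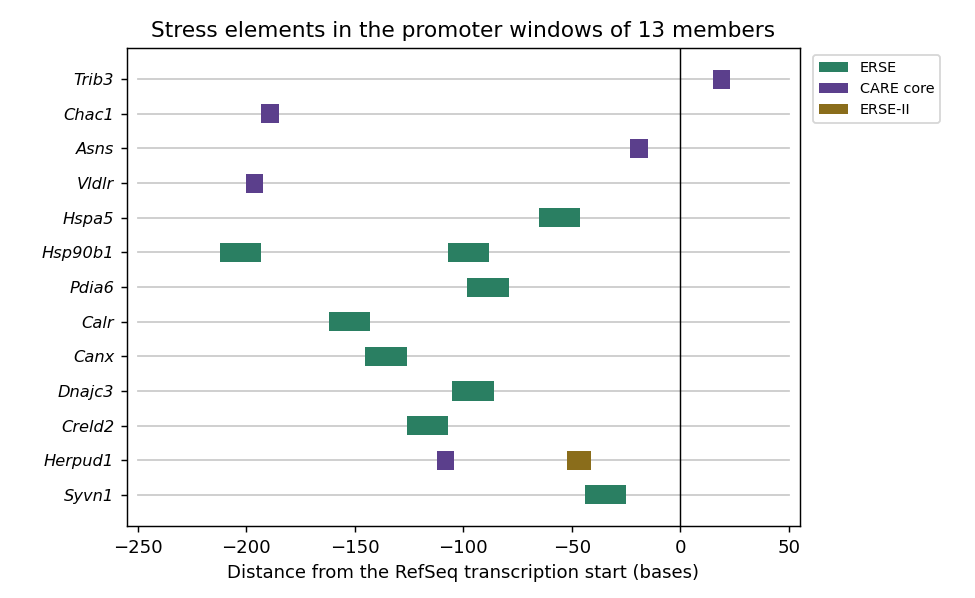
Positions of the elements in the promoter windows of 13 members. The horizontal axis is the distance from the RefSeq transcription start in bases, grey lines span the window and coloured bars mark each match. ERSE matches lie between 212 and 26 bases before the start, and the match in Trib3 lies after it.

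Levels of the members spanned from 2.09 FPKM for Chac1 in WT 1 to 657 for Hspa5 in 211F 1. A level of 3 fragments in 1 kb equals 0.0497 to 0.0912 FPKM, assuming no scaling of libraries to each other, so the lowest member value was 23.0 times the highest such floor. Chaperones of the ER lumen and membrane were the most abundant members. Hspa5, Hsp90b1, Calr, Canx and Pdia3 each stood at 236 FPKM or more in every library. Dnajb9, Sesn2, Chac1, Trib3 and Eif2ak3 stayed under 15 FPKM throughout.

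**Figure D2:**
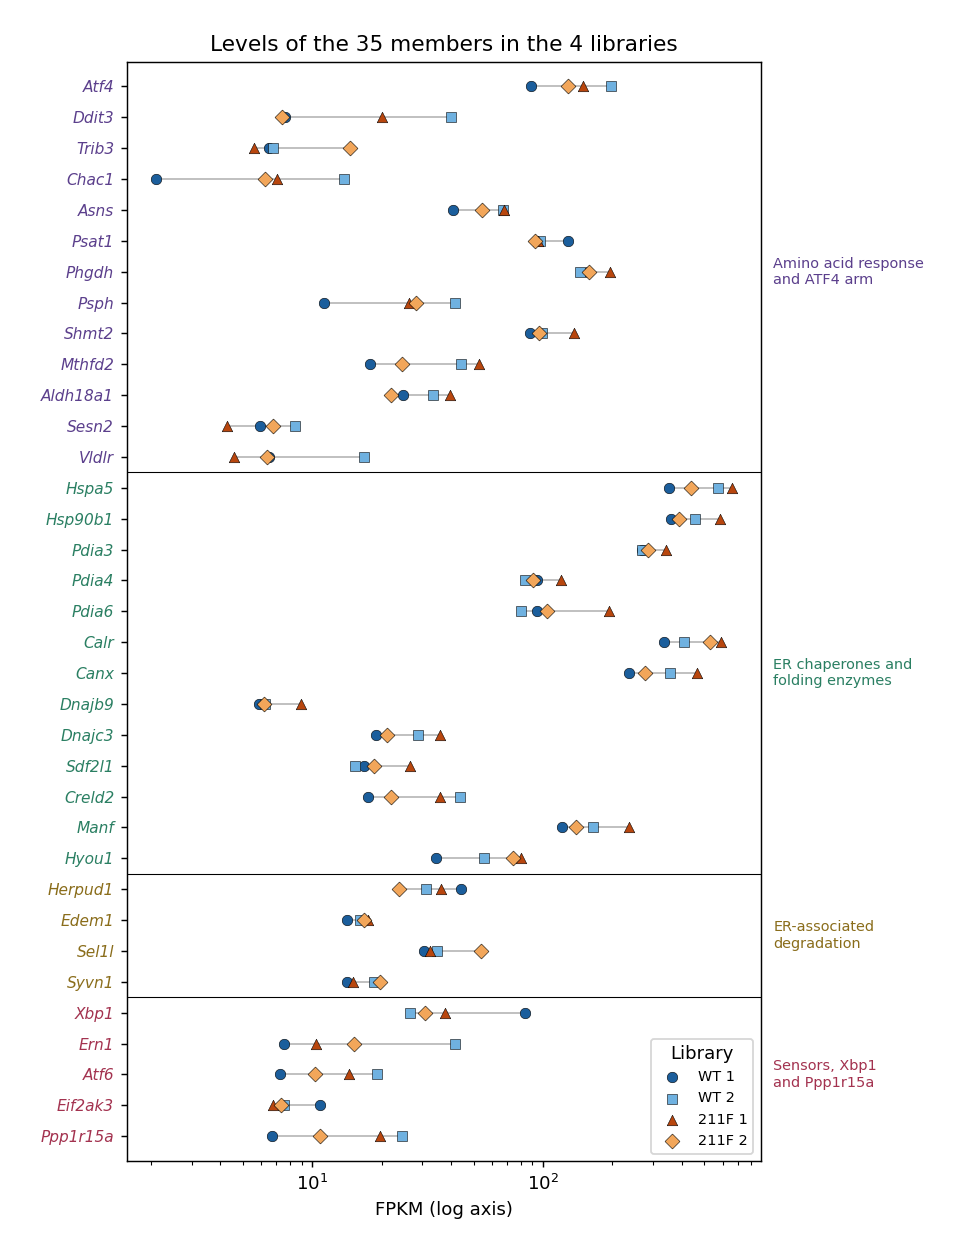
FPKM of each member in the 4 libraries, on a log axis, grouped by role. Grey lines join the lowest and the highest library of a gene. The triangle of 211F 1 is the rightmost point for 12 of the 13 folding genes, while the squares of WT 2 lead for Atf4, Ddit3, Chac1 and Ern1.

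No member passed the test between genotypes. The comparison asks whether stress transcripts differ between tumour cells with altered and with wild-type PCNA. In limma, a linear model test with a shared variance estimate, fitted to log2(FPKM + 1), the adjusted p was 0.9999 for each of the 35 members, and 0% of the 12767 genes were called. At an unadjusted p under 0.05 there were 0 members and 241 genes (1.89% of all genes, with 0.893% higher and 0.995% lower in 211F). Both counts moved in some fits with a library left out, where a lone library stands for its genotype. Differences are 211F minus WT on this log2 scale, given ± their standard error from limma, and the values of a genotype are given with replicate 1 first. They were positive in 27 of 35 members, with a median of 0.22 (-0.063 without WT 1 and -0.025 without 211F 1), against 53.1% of all tested genes with a median of 0.03. For 27 members the difference was no larger than its own standard error, as for 69.8% of all genes. Groups did not overlap in 10 members, 7 with both 211F libraries above both WT libraries (15.2% of all genes) and 3 below (11.6%). With 26.8% of all genes separated in either direction, the count of 10 is near the background. No member had every 211F library at least 1 log2 unit above or below every WT library, as 0.838% of all genes did. An exact permutation test of 2 against 2 libraries cannot go below p = 0.333 (two-sided). The count of positive differences was 16 without WT 1 and 16 without 211F 1, so it rested on those libraries.

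**Figure D3:**
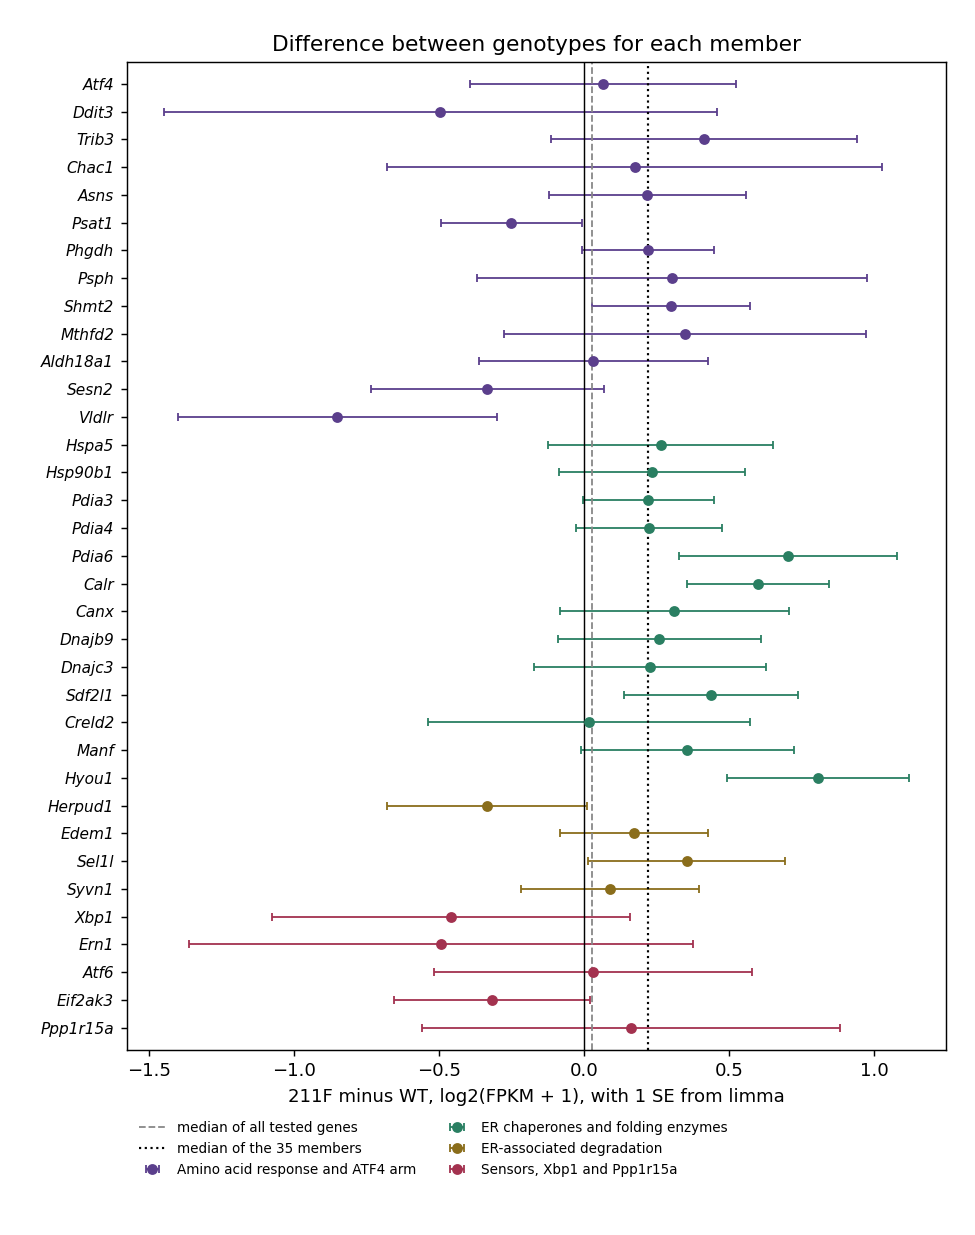
Difference between genotypes for each member, as 211F minus WT in log2(FPKM + 1), with bars of 1 standard error from limma (n = 2 per genotype). All 13 folding genes lie to the right of 0 (12 with quantile normalization), Hyou1 farthest at 0.81, and most bars reach or cross 0.

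All 13 chaperone and folding genes had a positive difference (12 with quantile normalization, which turned Creld2), with a median of 0.26, and none passed the test. In sum they reached 1949 and 2541 FPKM (WT) and 3378 and 2399 (211F), so the genotypes overlapped. In 12 of the 13 the highest library was 211F 1, which was the highest library for 22.4% of all genes. In 10 of the 13 the lowest was WT 1, against 27.5% of all genes. All 13 were higher in 211F 1 than in 211F 2, as were 5928 of all 12767 tested genes. For the 13 this gap within one genotype had a median of 0.58. Without 211F 1 only 7 of the 13 differences were positive, with a median of 0.02. Other ER chaperones and oxidoreductases, a list described further on, were highest in 211F 1 for 29.4% and in WT 2 for 55.9%. Outside the ER chaperones, 211F 1 led for 52.9% of ER translocation and vesicle transport genes. It also led for 47.6% of cytosolic heat shock and chaperonin genes. The lead of 211F 1 was thus neither general to ER chaperones nor confined to them. Over all 35 members, 211F 1 was highest for 18, WT 2 for 10 (30.2% of all genes), WT 1 for 4 (21.2%) and 211F 2 for 3 (26.2%). WT 1 was lowest for 22, WT 2 for 5 (29.2%), 211F 1 for 4 (23.1%) and 211F 2 for 4 (20.2%). Epithelial and mesenchymal markers were both high in 211F 1, with sums of 3312 and 4271 FPKM, and their part in the result was not tested.

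The folding genes with separated groups were Hyou1, Calr, Pdia6, Sdf2l1 and Pdia3. Hyou1 (ENSMUSG00000032115), a large ER chaperone that acts as exchange factor for BiP, lies on GRCm38 chromosome 9, from 44379490 to 44392369. It was at 34.5 and 55.4 (WT) against 80.6 and 73.9 FPKM (211F), a difference of 0.81 ± 0.31, the largest among the positive ones. Both 211F libraries were close together, and WT 1 was the low one. Calr (calreticulin, a lectin chaperone that also stores calcium; chromosome 8, 84841850 to 84846934) was at 334 and 409.8 (WT) against 593 and 532 FPKM (211F), a difference of 0.60 ± 0.24. Here too the 211F libraries were near each other, and the gap between genotypes exceeded the gap within either. Pdia6, a disulfide isomerase that also restrains stress sensors, was at 93.8 and 80.3 (WT) against 193 and 105 FPKM (211F) (0.70 ± 0.37). Only 211F 1 stood well above the rest, and 211F 2 lay close to WT 1. Sdf2l1, a partner of ER DnaJ proteins, was at 16.7 and 15.4 (WT) against 26.4 and 18.5 FPKM (211F) (0.44 ± 0.30). Pdia3, the isomerase that works with calreticulin and calnexin, stood at 268 and 268 (WT) against 343 and 285 FPKM (211F) (0.22 ± 0.23). In both genes 211F 2 lay only slightly above the higher WT library. The unadjusted p was 0.0618 for Hyou1, 0.0695 for Calr and 0.133 for Pdia6.

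The central ER chaperones overlapped between genotypes. Hspa5, which encodes BiP, the chaperone that holds the sensors inactive, was at 350.2 and 572 (WT) against 657 and 440.0 FPKM (211F) (0.26 ± 0.39). WT 1 was lowest and 211F 1 highest, with WT 2 above 211F 2. Hsp90b1 (GRP94, the ER member of the Hsp90 family) was at 359 and 458 (WT) against 584 and 390.0 FPKM (211F) (0.23 ± 0.32), and Canx (calnexin, the membrane lectin chaperone) shared its order of libraries. The order was WT 1, 211F 2, WT 2 and 211F 1 from low to high, with Canx at 236 and 355 (WT) against 466 and 277 FPKM (211F) (0.31 ± 0.40). Manf, a secreted ER stress protein, kept to it at 121 and 165 (WT) against 235 and 139 FPKM (211F) (0.36 ± 0.37). Dnajc3, a BiP co-chaperone that also inhibits PERK, had the same order at 18.9 and 28.8 (WT) against 35.7 and 21.2 FPKM (211F) (0.23 ± 0.40). Creld2, an ER stress-induced secreted protein, differed from that order only in that WT 2 led, at 17.4 and 43.8 (WT) against 35.7 and 22.04 FPKM (211F) (0.02 ± 0.56). Dnajb9, a co-chaperone that recruits BiP to IRE1, was at 5.88 and 6.25 (WT) against 8.93 and 6.19 FPKM (211F) (0.26 ± 0.35). Pdia4, another disulfide isomerase, was at 94.3 and 83.98 (WT) against 120.3 and 90.2 FPKM (211F) (0.22 ± 0.25). In these 2 genes 3 libraries lay close together and 211F 1 lay above them. Exons of Hsp90b1 overlap a pseudogene on the other strand over 10.3% of their length, so some of its reads may be shared. Those of Manf overlap Dcaf1 over 4.14% and an antisense transcript over 4.71%.

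Genes of ER-associated degradation had differences of both signs between genotypes and no common order of libraries, though WT 1 was lowest in 3 of the 4. The 4 members had 3 positive differences and a median of 0.13, and without 211F 2 only 1 of the 4 was positive. Herpud1 was at 44.1 and 31.3 (WT) against 36.03 and 23.7 FPKM (211F) (-0.33 ± 0.34). WT 1 was its highest library and 211F 2 its lowest, the reverse of the chaperones for WT 1. Sel1l, the adaptor of the HRD1 ubiquitin ligase, was at 30.4 and 34.8 (WT) against 32.3 and 54.1 FPKM (211F) (0.35 ± 0.34), with only 211F 2 standing apart. Syvn1, which encodes that ligase and carries an ERSE, was at 14.1 and 18.5 (WT) against 15.03 and 19.8 FPKM (211F) (0.09 ± 0.31), in both genotypes with replicate 2 above replicate 1. Edem1, which hands misfolded glycoproteins to the machinery, stood at 14.2 and 16.1 (WT) against 17.5 and 16.8 FPKM (211F) (0.17 ± 0.26). The groups of Edem1 did not overlap, but its whole range was only 0.28 log2 units, and just 5.84% of tested genes had a narrower one.

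In the ATF4 arm the libraries of one genotype lay far apart, with WT 2 above WT 1 in 11 of 13 members by a median of 0.70. Of 13 members 9 had a positive difference, with a median of 0.17, but 3 without WT 1 (median -0.28) and 7 with quantile normalization. Atf4, the transcription factor of the arm, was at 88.5 and 198 (WT) against 149 and 129 FPKM (211F) (0.06 ± 0.46). The WT libraries were its extremes, and both 211F libraries lay between them. Ddit3 (CHOP, a factor that promotes cell death under lasting stress) was at 7.61 and 39.8 (WT) against 20.05 and 7.39 FPKM (211F) (-0.50 ± 0.95). WT 2 held 5.23 times the level of WT 1, and 211F 2 lay near WT 1. Chac1, a glutathione-degrading enzyme downstream of ATF4 and CHOP, was at 2.09 and 13.7 (WT) against 7.04 and 6.22 FPKM (211F) (0.17 ± 0.85). It too was lowest in WT 1 and highest in WT 2, which differed by a factor of 6.55. Trib3, a pseudokinase that feeds back on ATF4, did not share this pattern, at 6.48 and 6.76 (WT) against 5.60 and 14.6 FPKM (211F) (0.41 ± 0.53). There 211F 2 stood apart from 3 libraries that lay close together. Exons of Ddit3 overlap Mars on the other strand over 3.97% of their length.

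Amino acid synthesis genes split into stable and variable members. Phgdh, the first enzyme of serine synthesis, was at 156 and 145 (WT) against 195 and 159 FPKM (211F) (0.22 ± 0.23). Psat1, which follows it, was at 128 and 97.1 (WT) against 95.03 and 92.3 FPKM (211F) (-0.25 ± 0.24). Psph, the last enzyme of the path, was at 11.3 and 41.6 (WT) against 26.2 and 28.1 FPKM (211F) (0.30 ± 0.67). Phgdh and Psat1 stayed within a factor of 1.39 over all libraries, whereas Psph spanned a factor of 3.69 with WT 1 low. Groups did not overlap for Phgdh (211F higher) and Psat1 (211F lower), in each case by a gap smaller than the spread within a genotype. Exons of Psph overlap Cct6a on the other strand over 10.4% of their length. Shmt2, a mitochondrial enzyme that moves serine carbon into folate, was at 87.8 and 98.7 (WT) against 137 and 96.2 FPKM (211F) (0.30 ± 0.27). Mthfd2, which handles that carbon next, was at 17.8 and 44.01 (WT) against 52.98 and 24.5 FPKM (211F) (0.35 ± 0.62). For both genes 211F 1 was highest and WT 1 lowest. Asns, asparagine synthetase, was at 40.7 and 66.8 (WT) against 68.1 and 54.5 FPKM (211F) (0.22 ± 0.34). Aldh18a1, which starts proline synthesis, was at 24.7 and 33.5 (WT) against 39.4 and 21.9 FPKM (211F) (0.03 ± 0.39). The genotypes overlapped in both. Sesn2, a leucine-binding inhibitor of mTORC1, was at 5.92 and 8.38 (WT) against 4.26 and 6.79 FPKM (211F) (-0.33 ± 0.40), and its lowest library was 211F 1.

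Vldlr, the very low density lipoprotein receptor and an ATF4 target, had the most negative difference among the members, -0.85 ± 0.55, with an unadjusted p of 0.196. It was at 6.48 and 16.8 (WT) against 4.57 and 6.35 FPKM (211F). The groups did not overlap, but WT 1 and 211F 2 were nearly equal and WT 2 alone was high. Without WT 2 the difference was -0.23.

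The sensor genes and their first targets differed more within WT than between genotypes. Ern1, which encodes IRE1, was at 7.57 and 41.5 (WT) against 10.4 and 15.1 FPKM (211F) (-0.49 ± 0.87). WT 2 was high, and the other libraries lay within 7.57 to 15.1 FPKM. Xbp1, whose transcript IRE1 splices, was at 83.8 and 26.6 (WT) against 37.8 and 30.96 FPKM (211F) (-0.46 ± 0.62). Here WT 1 was high, so kinase and substrate transcripts had their highest level in different WT libraries. Milk and secretory markers were also highest in WT 1 (884 FPKM in sum, against 1.12 to 94.5 elsewhere), and their part in the level of Xbp1 was not tested. Atf6, the sensor that is cleaved into a factor, was at 7.27 and 19.2 (WT) against 14.4 and 10.3 FPKM (211F) (0.03 ± 0.55). Ppp1r15a (GADD34, which leads the phosphatase to eIF2alpha) was at 6.68 and 24.4 (WT) against 19.7 and 10.8 FPKM (211F) (0.16 ± 0.72). For both genes WT 1 was lowest and WT 2 highest, as for Atf4. Eif2ak3, which encodes PERK, was at 10.8 and 7.57 (WT) against 6.79 and 7.33 FPKM (211F) (-0.32 ± 0.34). Its groups did not overlap, but WT 2, 211F 1 and 211F 2 lay between 6.79 and 7.57 FPKM and WT 1 was higher. Its exons overlap an unclassified transcript on the other strand over 8.05% of their length. Of these 5 genes 2 had a positive difference (median -0.32). Without 211F 1 the count was 0 (median -0.25), and without WT 2 it was 3 (median 0.66).

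**Figure D4:**
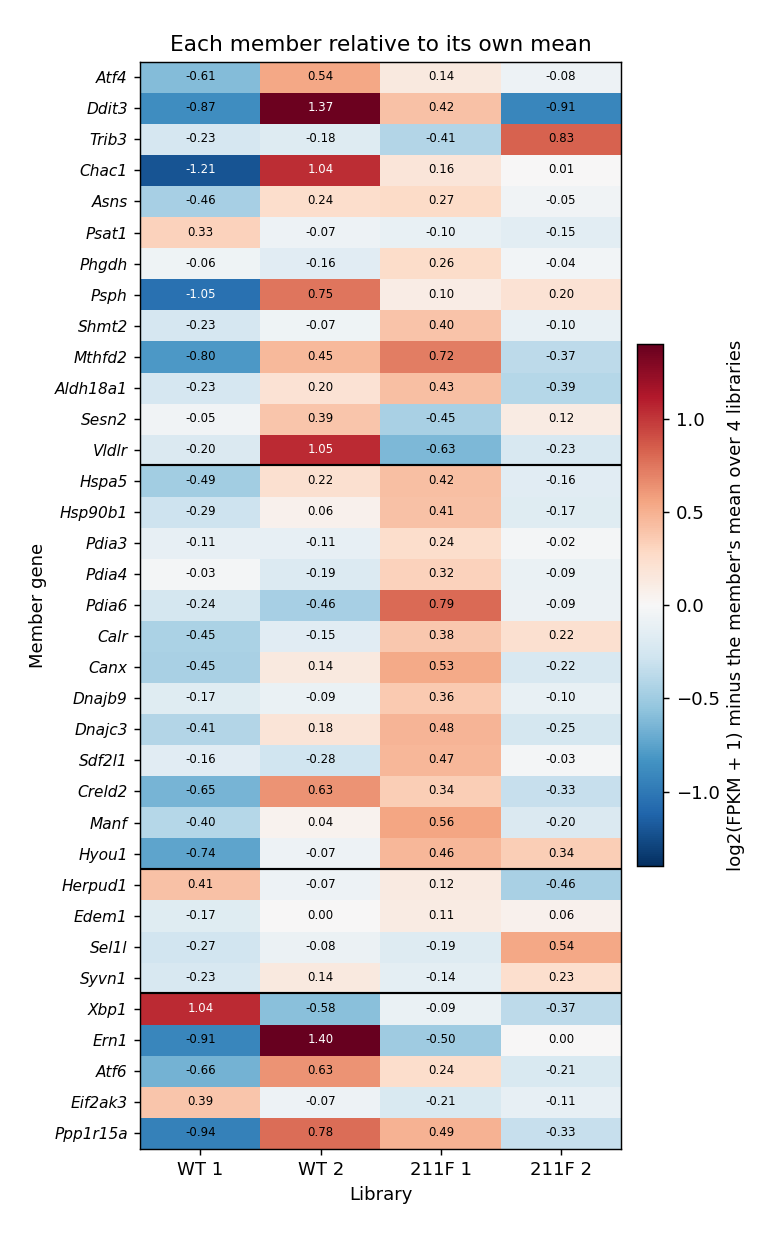
Each member's log2(FPKM + 1) in a library minus its mean over the 4 libraries, grouped by role (rows) and library (columns). The folding genes are red in 211F 1 and mostly blue in WT 1. Ddit3, Chac1, Psph, Vldlr, Ern1 and Ppp1r15a are reddest in WT 2, and Xbp1 in WT 1.

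Comparison of single libraries showed how far the members varied within a genotype. Gaps of 1 log2 unit or more separated the WT libraries in 11 of 35 members (24.5% of all genes), of which 10 were higher in WT 2 and Xbp1 was higher in WT 1. Both 211F libraries differed as far in 3 members (19.1% of all genes), namely Ddit3, Trib3 and Mthfd2. Between genotypes the counts were 8 for 211F 1 against WT 1 (20.1%), 5 for 211F 2 against WT 1 (10.4%), 3 for 211F 1 against WT 2 (17.1%) and 6 for 211F 2 against WT 2 (24.7%). No pair of genotypes thus exceeded the count within WT. These comparisons share libraries and carry no test. For the 13 folding genes the median was 0.88 in 211F 1 against WT 1, 0.16 in 211F 2 against WT 1, 0.45 in 211F 1 against WT 2 and -0.01 in 211F 2 against WT 2. In the same order 13, 12, 12 and 6 of the 13 were higher in the 211F library. For the 13 genes of the ATF4 arm the medians were 0.66, 0.17, -0.23 and -0.55. Their sign followed the WT library compared, positive against WT 1 and negative against WT 2. Beside this, epithelial markers summed to 3119.6 FPKM in WT 1 and 7.28 in WT 2, and the part of that difference was not tested.

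**Figure D5:**
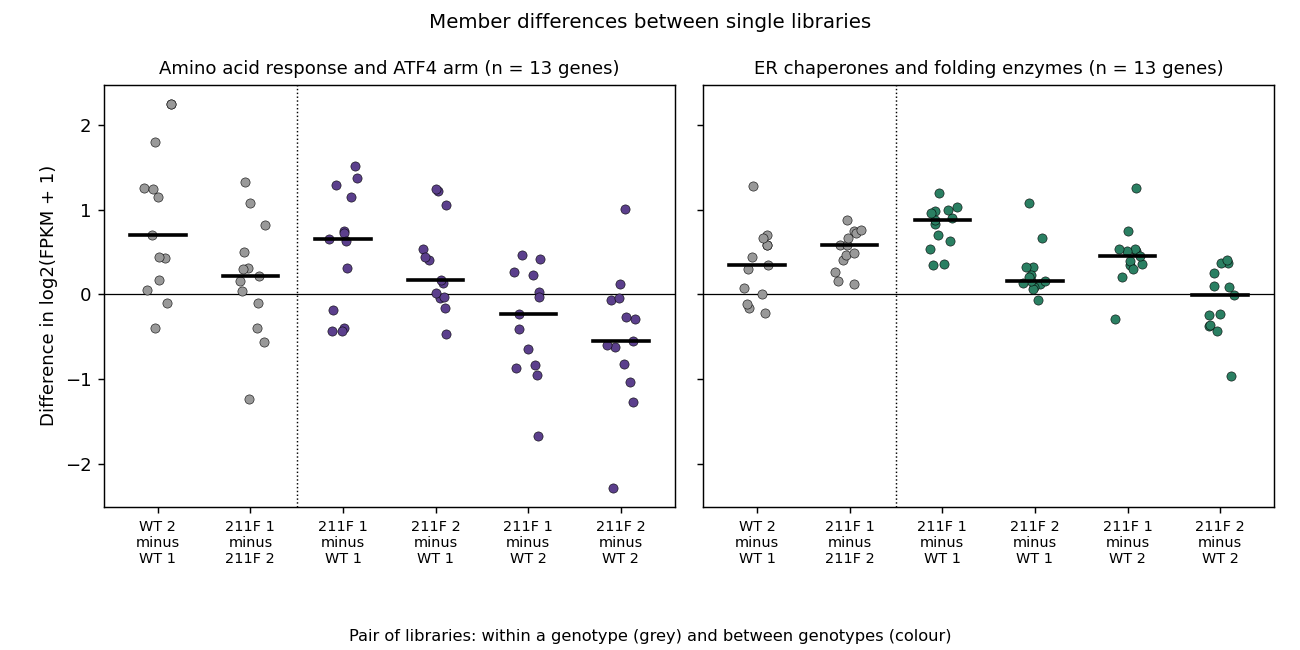
Differences in log2(FPKM + 1) between single libraries for the 13 genes of the ATF4 arm (left) and the 13 folding genes (right). Each point is a gene, black bars are medians, grey marks pairs within a genotype and colour pairs between genotypes. The ATF4 arm medians change sign with the WT library, from 0.66 and 0.17 to -0.23 and -0.55, while those of the folding genes run from 0.88 to -0.01.

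The members with an ERSE in the window were then set beside other genes that hold it. All 8 had a positive difference, with a median of 0.25, 6 were highest in 211F 1 (22.4% of all genes) and 7 lowest in WT 1 (27.5%). With quantile normalization 7 of the 8 were positive, without 211F 1 only 3 and without WT 1 only 4, so the count rested on those libraries. The 8 are Syvn1 and 7 of the folding genes described above. Folding genes searched without a match, Pdia3, Pdia4, Dnajb9 and Sdf2l1, were also positive (0.22, 0.22, 0.26 and 0.44) and highest in 211F 1. Of the 29 other genes whose window holds the element, 6 reached the expression filter, and 2 of these had a positive difference (median -0.31, but 0.37 and 4 positive without 211F 2). No difference between these sets of genes was tested. The 5 members with the ATF4-type core had 3 positive differences and a median of 0.17, which was -0.13 without WT 1 and -0.043 without 211F 2. The 251 tested other genes with it had a median of 0.03.

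Further genes of these pathways did not pass the test either. Of 212 tested genes in 10 lists, limma called 0 (0% of all genes). At an unadjusted p under 0.05, 3 were higher and 2 lower in 211F, against 0.893% and 0.995% of all genes. Differences were positive in 123 of the 212 (58.0%), against 53.1% of all tested genes. Groups did not overlap in 39 of the 212 with 211F higher (15.2% of all genes) and in 19 with 211F lower (11.6%). The genes named from here on are the 2 of smallest p in limma in each list. That choice itself favours groups that do not overlap. Aminoacyl-tRNA synthetases, which charge tRNAs and are ATF4 targets in part, had 18 of 20 positive differences and a median of 0.25, but 11 of 20 and 0.049 without 211F 1. In 12 of the 20 the highest library was 211F 1. Nars was at 110.2 and 109 (WT) against 225 and 183 FPKM (211F) (0.88 ± 0.22). Wars was at 19.5 and 22.1 (WT) against 35.3 and 40.6 FPKM (211F) (0.83 ± 0.24), and the adjusted p in limma was 0.9999 for both. In these genes, which charge asparagine and tryptophan tRNAs, the groups did not overlap. Genes of ER translocation and vesicle transport had 26 of 34 positive differences (median 0.15), but 15 without WT 1 (median -0.086) and 16 without 211F 1 (median -0.071). Without WT 2 the count was 28 (median 0.40), and without 211F 2 it was 31 (median 0.42). In this list Sec11c, a signal peptidase subunit, was at 39.6 and 17.6 (WT) against 53.7 and 67.6 FPKM (211F) (1.16 ± 0.47). Sec61b, a translocon subunit, was at 78 and 76.6 (WT) against 105 and 91.3 FPKM (211F) (0.34 ± 0.21), and the groups of both genes did not overlap.

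The subunits of eIF2 and eIF2B with the other eIF2alpha kinases had 10 of 12 positive differences (median 0.19), but 6 of 12 without 211F 2, where the median was near 0. Eif2s1, which encodes eIF2alpha itself, was at 26.97 and 26.8 (WT) against 49.3 and 37.6 FPKM (211F) (0.66 ± 0.25). Eif2b3, a subunit of its exchange factor, was at 16.5 and 14.2 (WT) against 27.2 and 20.4 FPKM (211F) (0.59 ± 0.29). The groups of both genes did not overlap. Amino acid transporters of the response had 5 of 9 positive (median 0.13), but 3 of 9 without WT 1 (median -0.49) and 3 of 9 without 211F 1 (median -0.52). Without WT 2 the count was 8 of 9 (median 0.28). Slc7a1, the arginine and lysine transporter, was at 24.9 and 18.1 (WT) against 37.2 and 37.4 FPKM (211F) (0.78 ± 0.27). Slc38a2, a glutamine and alanine transporter, was at 69.4 and 129 (WT) against 60.8 and 64.9 FPKM (211F) (-0.59 ± 0.37). One lay higher and the other lower in both 211F libraries. Other ER chaperones and oxidoreductases had 18 of 34 positive (median 0.08), but 13 without WT 1 (median -0.34) and 30 without WT 2 (median 0.39). Among them Tmx1, a membrane thioredoxin, was at 25.9 and 26.7 (WT) against 38.7 and 38.9 FPKM (211F) (0.54 ± 0.22). Txndc11, a thioredoxin-domain protein of the ER, was at 10.7 and 10.2 (WT) against 16.4 and 15.4 FPKM (211F) (0.56 ± 0.26), and both genes were higher in each 211F library than in each WT library. Other degradation genes had 15 of 26 positive (median 0.13), but 11 without WT 1 (median -0.14) and 13 without 211F 1 (median -0.01). Without WT 2 the count was 22 (median 0.19). The lectin gene Os9 was at 82.1 and 105 (WT) against 71.6 and 66.5 FPKM (211F) (-0.42 ± 0.24). Ube2j2, a ubiquitin-conjugating enzyme of the ER membrane, was at 74.5 and 75.2 (WT) against 90.1 and 107 FPKM (211F) (0.38 ± 0.22).

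Further ATF4 and CHOP factors and targets had 6 of 19 positive differences and a median of -0.40, which was -0.10 with 9 positive without 211F 2 and -0.62 without 211F 1. Sesn1, a relative of Sesn2 and a p53 and FOXO target, was at 13.1 and 13.4 (WT) against 5.10 and 4.56 FPKM (211F) (-1.29 ± 0.30). Sesn3, the third sestrin gene, was at 20.04 and 21.4 (WT) against 14.2 and 12.5 FPKM (211F) (-0.60 ± 0.26). In both genes both 211F libraries lay below both WT libraries. Other sensors, proteases and death factors of ER stress had 6 of 15 positive (median -0.08), but 10 without WT 2 (median 0.15). Bcl2l11 (BIM, a death promoter that CHOP can induce) was at 14.5 and 24.4 (WT) against 6.57 and 5.69 FPKM (211F) (-1.48 ± 0.38). Bak1, a pore former of the mitochondrial death pathway, was at 97.3 and 90.3 (WT) against 109 and 135 FPKM (211F) (0.37 ± 0.23). Other serine, one-carbon, proline and transamination enzymes had 9 of 22 positive (median -0.11, or -0.028 without WT 1). Glul, glutamine synthetase, was at 221 and 41.9 (WT) against 17.7 and 56.05 FPKM (211F) (-1.58 ± 1.03), and WT 1 stood apart. Mthfd1, a cytosolic folate enzyme, was at 38.2 and 24.4 (WT) against 45.2 and 41.6 FPKM (211F) (0.49 ± 0.31). Cytosolic heat shock and chaperonin genes, which answer to another stress factor, had 10 of 21 positive and a median near 0, but 15 positive without 211F 2 (median 0.17). In that list Hsp90aa1, an inducible cytosolic Hsp90, was at 452 and 422 (WT) against 695 and 550.3 FPKM (211F) (0.50 ± 0.25). Cct3, a chaperonin subunit, was at 159 and 171 (WT) against 238 and 185 FPKM (211F) (0.35 ± 0.24).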

How the data were processed

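FPKM values were used as the authors deposited them, in a table of 50679 Ensembl genes by 4 libraries (2 WT, 2 211F). Per the submitters' processing notes, TopHat2 2.0.13, DESeq2 and GRCm38 were used, with no role given. For the FPKM program, its annotation and its strand setting nothing is given in the sources used here, and a very abundant gene lowers the FPKM of others. Symbols and positions came from GENCODE M21 on GRCm38 by identifier (50455 matched). Depth relative to WT 1, from the whole steps of low values in 1974 single-transcript genes of at least 3000 bp (92.8% to 94.6% of low values within 0.1 of a whole fragment), was 1.72 for WT 2, 1.10 for 211F 1 and 0.938 for the second 211F library. The 12767 genes that averaged 1 FPKM or more were tested on log2(FPKM + 1) with limma 3.58.1 in R 4.3.3 (two-sided, intensity trend, Benjamini-Hochberg adjustment at 0.05). Afterwards the fit was also run on data simulated from its means and spread, and nothing is concluded from that run. The members and lists were chosen with earlier results of these data known. The rule for named genes took all members, the 2 genes of smallest p in each of 10 further lists, and Pcna, Epcam, Cdh1, Vim, Col1a1 and Ptprc. Further lists covered markers of other cell types. Of the 12 alternatives tried, some changed the pseudocount, filter, scaling or trend, and others added a replicate block or left out a library. Promoter sequences are those of RefSeq, GRCm38.p6.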

Additional observations from a re-analysis of the deposited data

How the results depend on the processing

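limma called 0 genes and 0 members in the test as designed and in each of the 12 alternatives. At an unadjusted p under 0.05 stood 241 genes, against 745 with no filter on low values (more genes tested) and between 221 and 836 on leaving out a library (members 0 to 3), where the lone library of its genotype is assumed to vary like the others. With the replicate block they numbered 142, and the block changed no member's direction; the labels do not say that replicate numbers pair libraries, and across genes same-numbered libraries deviated from their group means with r = -0.465. Leaving out each library gave 16 to 29 positive differences among the 35 members, 3 to 10 in the ATF4 arm, 7 to 13 among the folding genes, 1 to 3 in degradation and 0 to 3 among the sensors; the counts by role, by further list and by sequence element were added after seeing the data. The median then ran from -0.025 to 0.27 for degradation and from -0.61 to 0.66 for the sensors. Of 420 differences of single members under an alternative, 33 turned, in 20 members, 30 of them when a library was left out. Quantile normalization turned Atf4 (-0.021), Aldh18a1 (-0.013) and Creld2 (-0.034). Leaving out a library gave ranges that cross 0 for Atf4 (-0.51 to 0.64), Ddit3 (-1.62 to 0.63), Trib3 (-0.21 to 1.03), Chac1 (-0.95 to 1.30), Asns (-0.13 to 0.57), Psph (-0.60 to 1.2), Mthfd2 (-0.28 to 0.98), Aldh18a1 (-0.38 to 0.44), Hspa5 (-0.089 to 0.62), Hsp90b1 (-0.056 to 0.52), Canx (-0.065 to 0.69), Dnajc3 (-0.14 to 0.59), Creld2 (-0.62 to 0.66), Manf (-0.021 to 0.73), Sel1l (-0.0081 to 0.72), Syvn1 (-0.10 to 0.28), Xbp1 (-1.27 to 0.35), Ern1 (-1.65 to 0.66), Atf6 (-0.61 to 0.67) and Ppp1r15a (-0.70 to 1.024). The cause was not tested. 211F 1 was the highest library of 12 of the 13 folding genes as deposited, with median scaling and with quantile normalization. WT 1 was the lowest library of 10 of them as deposited, 8 with median scaling and 10 with quantile normalization. With 2 libraries per genotype, differences of the size seen in the members cannot be told from the spread.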
